A study of Mus musculus with 47 samples.

Results

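The genes described are 40 mouse genes of ribosome biogenesis and the nucleolus. They were taken as rows of the deposited expression table whose gene symbol is on a list of 40, and all 40 were found among its 22632 genes. By role they are 2 abundant nucleolar proteins, 5 genes of RNA polymerase I transcription, 4 of box C/D and 4 of box H/ACA particles, the snoRNP chaperone Nolc1, 10 factors of the small ribosomal subunit, 11 of the large subunit and 3 nucleolar regulators. Their level in every group was set beside that of Myc.

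Ribosomes are assembled in the nucleolus, where RNA polymerase I transcribes a long precursor ribosomal RNA. Small nucleolar ribonucleoprotein particles (snoRNPs) modify it, those of the box C/D class by methylation and those of the box H/ACA class by pseudouridylation, and separate sets of assembly factors then cut and fold it into the small and the large subunit. Fast-growing cells make many ribosomes, and the transcription factor Myc is known to bind and activate many genes of this process.

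RNA was sequenced in 47 libraries of mouse cells undergoing reprogramming and of feeder fibroblasts. The cells were secondary mouse embryonic fibroblasts, which carry reprogramming factors that doxycycline switches on, so that all clones share the same inducible design. Of 8 clones, 4 are titled SC and 4 SI, names that the labels do not spell out, and each is 1 clone. The SC and SI clones were each sampled after 14 days with doxycycline (d14), after 21 days with it (d21), after 21 days with it followed by 1 day off it (d22) or by 2 days off it (d23), and after 27 days with it (d27).

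SC clones were sampled once more as secondary iPS cells, after 21 days with the drug and 6 days without. Every such group had 4 libraries, 1 per clone. The 3 feeder libraries were mouse embryonic fibroblasts that had no doxycycline. The treatment text counts d22 and d23 as days on the drug, and the per-sample entries given above were followed. P-values measure the spread between these clones, and between the feeder libraries where feeders are compared. Days of the same clone are treated as unpaired unless the clone is named as a block.

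Values are RPKM, reads scaled to transcript length and library size, a unit inferred from the values themselves. Differences are between group means of log2(RPKM + 1), a scale that shrinks the change of genes with low values. The spacing of low values implied 27.0 to 97.7 megareads in 42 libraries, and 10909 to 11931 genes per library reached 1 RPKM. Pluripotency markers (8 genes) averaged 6.24 ± 0.31 in log2(RPKM + 1) in iPS cells and 0.03 ± 0.02 in feeders (mean ± SD, n = 4 and 3), and Dppa4 was listed at 0 in all feeders. Fibroblast markers (10 genes) averaged 5.96 ± 0.68 in iPS cells and 9.03 ± 0.02 in feeders, and feeders also carried the macrophage lysozyme gene Lyz2 at 151.08 to 163.84 RPKM. Leukocyte markers (6 genes) were not particular to feeders. They averaged 3.07 ± 0.04 in feeders, 3.28 ± 0.39 in SI d22, 3.15 ± 0.22 in SI d23 and 2.05 ± 0.14 in iPS cells. Clone SC2 stood apart among the SC clones, on the drug as well as after withdrawal. Its pluripotency markers averaged 2.78 at d21, against 4.57 to 6.05 in the other SC clones. At d27 they averaged 2.35, against 4.70 to 5.98. At d23 its summed fibroblast markers were 5247.35 RPKM, against 899.41 to 2553.66 RPKM in the other SC clones. In bulk libraries, fewer cells of a type and less RNA per cell cannot be told apart.

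Myc binds the E-box CACGTG, so the stretch around each transcription start was searched for these letters, which read the same on both strands. RefSeq windows on GRCm38.p6, from 250 bases before to 50 bases after the start, were matched for 35 members, 43 windows in all since some genes have several starts, and not for Fbl, Npm1, Rrp12, Rrs1 and Bop1. CACGTG was in a window of 7 of the 35 genes (20%), of 17 of 76 other ribosome biogenesis genes (22.368%), of 1198 of 10214 genes with at least 1 RPKM in at least 3 libraries (11.729%) and of 2187 of all 27025 genes with a window (8.093%). The match is a description of letters and not of binding. The 7 are shown because they are all the members whose window holds the motif. Each is written 5′ to 3′ on the gene's strand with the motif in capitals and up to 12 bases on either side:
Imp4, chr1:34439696-34439725, plus strand: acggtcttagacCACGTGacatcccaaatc
Nop2, chr6:125131811-125131840, plus strand: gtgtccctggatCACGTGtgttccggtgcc
Utp20, chr10:88826765-88826789, minus strand: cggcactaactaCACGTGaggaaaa
Pes1, chr11:3963965-3963994, plus strand: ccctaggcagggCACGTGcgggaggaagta
Mybbp1a, chr11:72441355-72441376, plus strand: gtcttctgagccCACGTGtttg
Tsr1, chr11:74898092-74898121, plus strand: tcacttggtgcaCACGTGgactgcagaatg
Wdr43, chr17:71616220-71616249, plus strand: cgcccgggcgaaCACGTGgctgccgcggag
The 250 bases before the start of Nop2, an rRNA methyltransferase of the large subunit, show the motif in its setting (chr6:125131633-125131882, plus strand).
Nop2: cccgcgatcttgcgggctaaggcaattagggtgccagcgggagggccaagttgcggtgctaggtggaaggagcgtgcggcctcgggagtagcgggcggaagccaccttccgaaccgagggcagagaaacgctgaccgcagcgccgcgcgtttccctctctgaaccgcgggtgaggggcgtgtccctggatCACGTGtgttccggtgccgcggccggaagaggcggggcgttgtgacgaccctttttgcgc

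The 40 genes moved over a range of 1.84 to 9.45 times between their highest and lowest group means (median 3.66), smallest for Bysl, a factor of small subunit maturation, and largest for Dkc1, the pseudouridine synthase of box H/ACA snoRNPs. The highest mean was in SC iPS cells for 29 members, in SI d27 for 5, in SC d27 for 4 and in SC d22 for 2. The lowest was in SI d23 for 25, in feeders for 14 and in SI d21 for 1, Tsr1, a late small subunit factor. The mean of log2(RPKM + 1) over the members was 4.64 ± 0.19, 4.86 ± 0.39, 4.98 ± 0.58, 4.67 ± 0.43 and 5.22 ± 0.32 in SC clones at d14, d21, d22, d23 and d27 (mean ± SD, n = 4), and 5.34 ± 0.22 in SC iPS cells. It was 4.62 ± 0.30, 4.35 ± 0.46, 4.09 ± 0.08, 3.66 ± 0.10 and 5.07 ± 0.05 in SI clones at the same days, and 3.77 ± 0.02 in feeders (n = 3). Withdrawn SI clones and feeders were thus the low groups, while SI clones kept on the drug to d27 stood near the SC clones.

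**Figure D1:**
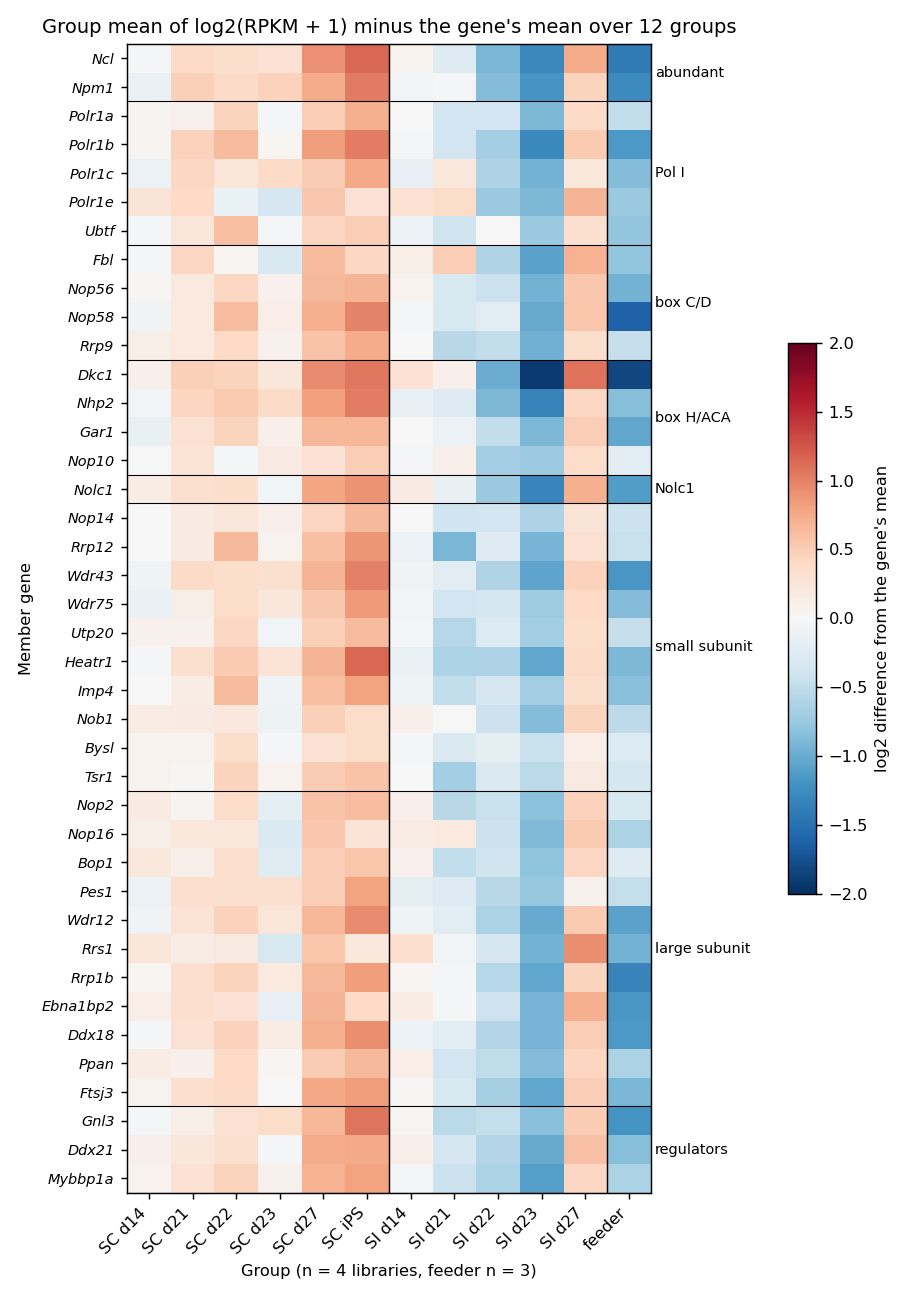
Group means of log2(RPKM + 1) for each of the 40 genes (rows, by role), less the gene's mean over the 12 groups (columns, SC, SI and feeder; n = 4 libraries, feeder n = 3). Blue fills the SI d23 and feeder columns, the lowest group for 25 and 14 genes, and red is deepest in SC iPS, the highest for 29.

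Myc fell on withdrawal in both classes, which is the change the ribosome genes were set beside. In SC clones 1 to 4 it was at 19.3, 12.69, 20.06 and 25.44 RPKM at d22, against 49.05, 63.94, 53.72 and 33.14 RPKM at d21. In SI clones 1 to 4 it was at 12.54, 15.74, 15.27 and 15.55 RPKM at d22, against 51.95, 49.33, 63.39 and 84.86 RPKM at d21. All 8 clones were lower after 1 day, and the libraries of the days did not overlap in either class. The log2 difference at d22 was -1.32 ± 0.25 in SC (SE, limma adjusted p = 0.0248) and -1.98 ± 0.18 in SI (adjusted p = 0.000372). At d23 Myc was at 11.7, 12.43, 7.2 and 9.62 RPKM in SC and at 12.09, 11.68, 14.93 and 15.36 RPKM in SI clones 1 to 4. The difference from d21 was then -2.17 ± 0.23 in SC (adjusted p = 0.00446) and -2.10 ± 0.18 in SI (adjusted p = 9.87e-05), and these comparisons share the d21 libraries. The SC and SI changes differed by 0.66 ± 0.32 at d22 (adjusted p = 0.779) and by -0.07 ± 0.31 at d23 (adjusted p = 0.899). RPKM here does not separate Myc reads of the gene itself from reads of a doxycycline-driven copy.

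In SC without 1 clone the fall of Myc stayed at -1.64 to -1.02 at d22, with adjusted p of 0.177 without SC1, 0.0807 without SC2 and 0.185 without SC3. At d23 it stayed at -2.33 to -1.98, with adjusted p of 0.0949 without SC1 and 0.0767 without SC3.

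Mycn, the relative of Myc expressed in pluripotent cells, had another course. It averaged 1.36, 13.0, 28.3, 23.4 and 19.1 RPKM in SC clones from d14 to d27 and 38.5 RPKM in iPS cells. SI clones averaged 1.20, 2.63, 4.28, 1.84 and 1.91 RPKM from d14 to d27, and feeders 0.13 RPKM. At d23 Mycn was at 29.48, 7.0, 20.78 and 36.22 RPKM in SC clones 1 to 4, against 4.0, 1.17, 0.78 and 1.39 RPKM in SI clones 1 to 4. Every SC library was above every SI library, with a log2 difference of 3.02 ± 0.50 (adjusted p = 0.0221). The SC clone lowest in Mycn at d21, d22, d23 and d27 was SC2, which was also the lowest of the 4 in the member mean at these days. At d14 it was lowest in Mycn too, at 1.05 RPKM, but its member mean of 4.69 was the second highest, in a range of 4.43 to 4.87. The part of Mycn in the level of the members was not tested.

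**Figure D2:**
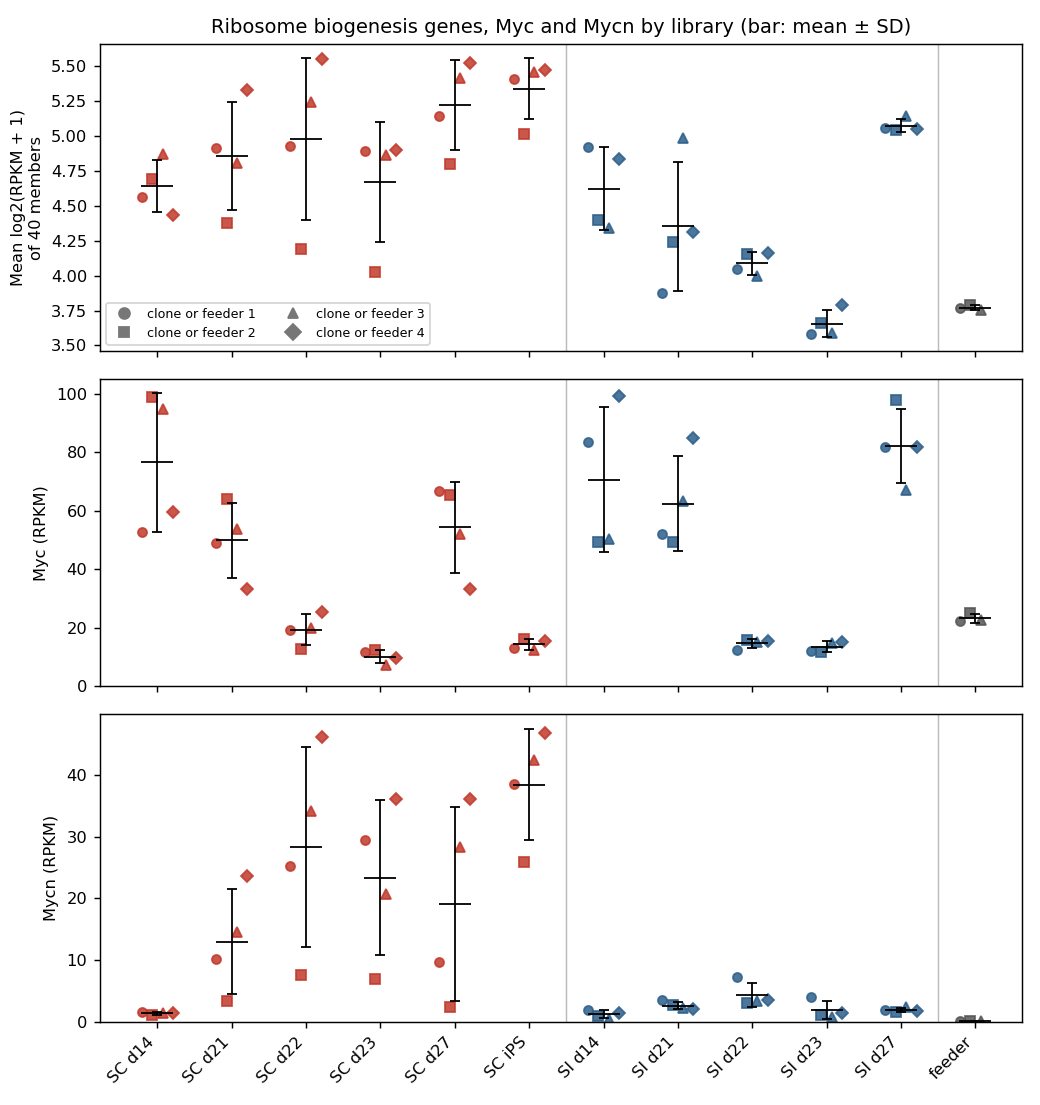
Mean log2(RPKM + 1) of the 40 genes (top), Myc (middle) and Mycn (bottom), both in RPKM, in each library by group (points, 1 shape per clone or feeder number; bars, mean ± SD). Myc drops after d21 in both classes. The member mean is 4.35 at d21 and 3.66 at d23 in SI, and 4.86 at d21 and 4.67 at d23 in SC.

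The classes were separated by these genes 2 days after withdrawal. At d23 all 40 members were higher in SC than in SI clones (adjusted p under 0.05), where 23% of the 11805 genes tested were higher and 19.5% lower. The median log2 difference was 1.00 over the members and -0.01 over all genes tested. For 38 members every SC library was above every SI library, as for 21.2% of genes tested, and the exceptions were Nop10 and Tsr1. The adjusted p of the members ran from 0.0221 for Dkc1 and others to 0.0389 for Tsr1. The count changed with the libraries used. It was 40 without SC2 (32.8% of all genes higher), 22 without SI1 (11.1% higher), and 0 without each of SC1, SC3, SC4, SI2, SI3 and SI4, where 2 to 9 genes of the whole table passed. The member median stayed at 0.91 to 1.20 throughout. Myc itself differed by -0.39 ± 0.18 between SC and SI at d23 (adjusted p = 0.106), and by -0.48 without SC2 (adjusted p = 0.0393). Proliferation markers (10 genes) moved with this contrast, at 5.19 ± 0.81 in SC and 2.93 ± 0.58 in SI clones in mean log2(RPKM + 1), and all 10 were higher in SC. All 10 fibroblast markers were lower in SC, at 899.41 to 5247.35 RPKM when summed in SC clones and 6129.36 to 10390.93 RPKM in SI clones. Their part in the difference was not tested.

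Among the snoRNP genes Dkc1 differed most. It was at 31.31, 10.64, 32.25 and 35.02 RPKM in SC clones 1 to 4 at d23, against 4.17, 5.03, 4.6 and 5.75 RPKM in SI clones 1 to 4. SC2 was the low SC clone and was still above all SI clones, and the log2 difference was 2.14 ± 0.34 (adjusted p = 0.0221). Its partner Nhp2, a core protein of the same particles, was at 86.18, 34.06, 120.45 and 142.71 RPKM in SC, against 22.98, 25.38, 23.64 and 28.92 RPKM in SI, a difference of 1.71 ± 0.39 (adjusted p = 0.0236). The other box H/ACA proteins, Gar1 and Nop10, were higher in SC by 1.00 ± 0.22 and 0.89 ± 0.28, and Nop10 overlapped, since SC2 at 13.76 RPKM lay inside the SI range of 11.05 to 15.2 RPKM. The 4 box C/D genes were higher in SC by 0.77 to 1.14. They are Fbl, the fibrillarin methyltransferase (0.77 ± 0.20), the scaffold proteins Nop56 (1.04 ± 0.24) and Nop58 (1.14 ± 0.24), and Rrp9 (1.05 ± 0.23).

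The 2 abundant nucleolar protein genes had the highest RPKM of the 40 in SC clones at d23. Ncl, nucleolin, an RNA-binding protein of pre-rRNA processing, was at 259.6, 116.06, 237.84 and 233.31 RPKM in SC clones at d23, against 71.31, 62.07, 55.47 and 80.04 RPKM in SI clones. Npm1, nucleophosmin, a histone and ribosome chaperone, was at 130.14, 55.43, 179.94 and 222.87 RPKM in SC, against 36.82, 38.29, 41.48 and 48.78 RPKM in SI. SC2 was again lowest in SC for both, and no library overlapped. The log2 differences were 1.59 ± 0.27 for Ncl and 1.64 ± 0.39 for Npm1 (adjusted p = 0.0221 and 0.024). Npm1 has processed pseudogenes, among which reads could have been divided, so that its level is uncertain.

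Of the RNA polymerase I genes, the subunits Polr1b and Polr1c differed by 1.33 ± 0.22 and 1.32 ± 0.27, the largest subunit gene Polr1a by 0.87 ± 0.16 and Polr1e by 0.56 ± 0.15. The polymerase I factor Ubtf, which binds ribosomal DNA, differed by 0.73 ± 0.18. Polr1b was at 11.11, 5.02, 10.81 and 8.79 RPKM in SC clones 1 to 4, against 2.87, 2.71, 2.42 and 3.32 RPKM in SI clones 1 to 4, with SC2 again the low SC clone and no overlap.

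Among the 10 small subunit genes the differences ran from 0.43 for Bysl to 1.37 for Wdr43. Wdr43 and Heatr1 (1.31 ± 0.20) act early, when the small subunit processome forms on nascent pre-rRNA, and Nob1 (0.75 ± 0.18), the nuclease that finishes the small subunit rRNA, acts last. Wdr43 was at 57.18, 25.21, 60.39 and 59.11 RPKM in SC clones 1 to 4, against 18.62, 17.23, 15.95 and 19.8 RPKM in SI clones 1 to 4. Bysl, at the other end, was at 19.3, 14.3, 17.19 and 18.31 RPKM in SC clones, against 13.03, 13.38, 12.27 and 11.45 RPKM in SI clones (0.43 ± 0.12, adjusted p = 0.0311). Neither gene overlapped, and for Bysl the lowest SC clone, SC2, lay just above the SI clones. The 11 large subunit genes ran from 0.56 to 1.24. Within the PeBoW complex, Wdr12 differed by 1.24 ± 0.23, Pes1 by 1.08 ± 0.31 and Bop1 by 0.56 ± 0.17. The regulators were Gnl3, nucleostemin (1.20 ± 0.28), Mybbp1a, a Myb-binding nucleolar protein (1.19 ± 0.26), and the RNA helicase Ddx21 (0.96 ± 0.19).

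**Figure D3:**
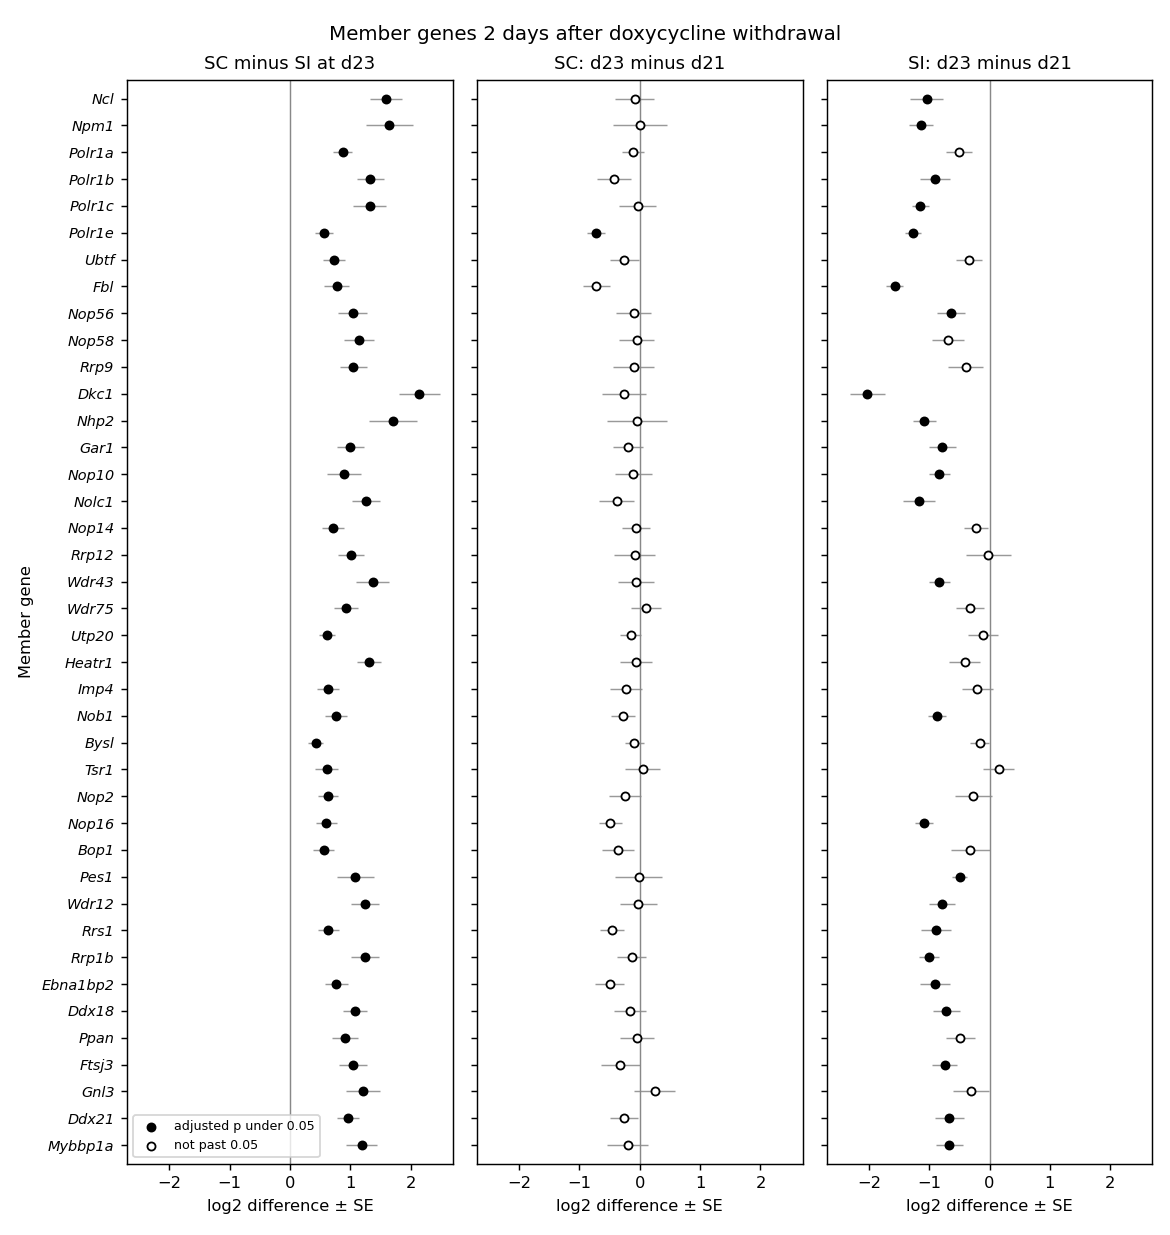
Difference in log2(RPKM + 1) with its standard error for each of the 40 genes, SC minus SI at d23 (left), SC d23 minus d21 (middle) and SI d23 minus d21 (right); filled points have an adjusted p under 0.05. All 40 are filled on the left, 1 in the middle and 24 on the right.

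Within SI clones, the share of members that were lower was near that of all genes after 1 day without the drug, and above it after 2 days. After 1 day without doxycycline, 10 of the 40 were lower at d22 than at d21 and none higher, where 18.8% of the 11878 genes tested were lower and 19.1% higher. The median difference was -0.28 over the members and -0.02 over all genes. The 10 held 3 of the 4 box H/ACA genes (Dkc1, Nhp2, Nop10) and 2 of the 5 polymerase I genes (Polr1c, Polr1e). The others were Fbl, Npm1, Nob1 and the large subunit factors Nop16 and Rrp1b. Without SI2 or SI4 the count was 3, where 7.63% and 6.36% of all genes were lower. Without SI3 it was 9 lower and 7 higher, with 26.8% of all genes lower and 29.4% higher and a member median of 0.02. Without SI1 the median was -0.44. By clone, the member mean changed from d21 to d22 by 0.17, -0.09, -0.99 and -0.15 in SI clones 1 to 4. Proliferation markers averaged 3.93 ± 0.53 in SI at d22 and 4.85 ± 0.14 at d21, and 6 of 10 were lower. Their part in the fall was not tested.

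After 2 days, 24 of 40 members were lower at d23 than at d21 and none higher, where 32% of the 11796 genes tested were lower, 22.7% higher and 54.6% either. The 24 include all 10 of the first day. The median difference was -0.70 over the members and -0.12 over all genes. The count was 12 without SI2 and 15 without SI4, where 21% and 20.8% of all genes were lower, and the median was -0.43 without SI3. At d23, 22 members had all d23 libraries below all d21 libraries, as did 29.6% of genes tested. By role, lower were both abundant nucleolar genes, all 4 box H/ACA genes, 3 of 5 polymerase I genes, 2 of 4 box C/D genes, Nolc1, 8 of 11 large subunit genes, 2 of 3 regulators and 2 of 10 small subunit genes (Wdr43 and Nob1). All 10 proliferation markers were lower and all 10 fibroblast markers higher at d23, and the summed fibroblast markers were at 6129.36 to 10390.93 RPKM at d23, against 1287.99 to 3253.92 RPKM at d21. Their part in the fall was not tested.

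Dkc1 fell to 4.17, 5.03, 4.6 and 5.75 RPKM in SI clones 1 to 4 at d23, against 12.67, 22.02, 42.1 and 22.64 RPKM at d21. SI3 was the high clone at d21, and all d23 values were below all d21 values, with a difference of -2.02 ± 0.30 (adjusted p = 0.000775). Fbl was at 2.33, 3.76, 3.69 and 3.68 RPKM at d23, against 10.89, 12.96, 12.47 and 11.24 RPKM at d21, a difference of -1.57 ± 0.14 (adjusted p = 0.000106). Unlike Dkc1, Fbl was alike in all 4 SI clones before withdrawal. Polr1e was at 2.89, 3.33, 2.77 and 3.3 RPKM at d23, against 6.59, 9.97, 9.6 and 9.38 RPKM at d21, a difference of -1.27 ± 0.14 (adjusted p = 0.000224). These 3 genes were also the largest falls at d22, at -1.11 ± 0.14 for Polr1e, -1.10 ± 0.15 for Fbl and -1.09 ± 0.30 for Dkc1 (adjusted p = 0.00116, 0.00139 and 0.0226). The fall of Dkc1 at d22 had an adjusted p of 0.104 without SI2 and 0.0887 without SI4.

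In SC clones the same withdrawal gave few member calls. At d22 against d21, limma called 0 of 40 members, where 3.42% of the 11949 genes tested were higher, 4.75% lower and 8.17% either. At an unadjusted p under 0.05, 1 member was lower, against 14.2% of all genes. The median was 0.15 over the members and -0.01 over all genes, 0.27 without SC2 and 0.03 without SC3. The clones at d22 and d21 are the same, and with the clone as a block 8 members were called, 6 higher and 2 lower, where 16.8% of all genes were higher and 20.4% lower. Higher at d22 were Rrp12, a small subunit export factor, Imp4, Nop58, Tsr1, Ubtf and Polr1a (0.35 to 0.48), and lower were Polr1e (-0.52 ± 0.15) and Nop10 (-0.30 ± 0.08), with adjusted p from 0.0082 to 0.0359. At d23 against d21 only Polr1e passed, where 2.81% of the 11975 genes tested were lower, 0.985% higher and 3.79% either. Polr1e was at 6.15, 3.59, 5.4 and 5.22 RPKM in SC clones 1 to 4 at d23, against 9.38, 8.8, 8.84 and 8.76 RPKM at d21. The groups did not overlap, and the difference was -0.73 ± 0.15 (adjusted p = 0.0373), which did not pass without SC1, SC3 or SC4 (adjusted p = 0.208, 0.252 and 0.0874), without the filter on low values or after rescaling. The libraries also did not overlap for Fbl and Ebna1bp2, both below d21, so that this held for 3 of 40 members and 9.37% of genes tested. Differences were below 0 for 37 of 40 members, and above 0 for 4823 of all genes tested. The member median was -0.12, with -0.07 over all genes. It was -0.19 without SC1, -0.22 without SC3 and -0.045 without SC4.

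Whether the fall differed between the classes was tested as an interaction. For the d23 against d21 change, 0 of 40 members passed in limma without a clone block, as did 0% of the 12714 genes tested. With no adjustment, 9 members were higher in SC at p under 0.05, against 13.4% of all genes. The median of the SC change less the SI change was 0.48 over the members and 0.04 over all genes, and 0.25 over the members without SI3. With the clone as a block, 10 members passed, all higher in SC, where 12.4% of all genes were higher. They were Dkc1 (1.77 ± 0.35), Npm1 (1.13 ± 0.26), Polr1c (1.11 ± 0.18), Nhp2 (1.03 ± 0.24), Rrp1b, Fbl (0.85 ± 0.22), Nop10, Nop16, Nob1 and Polr1e, with adjusted p from 0.0327 to 0.0487. Without SC2 and with no block, 11 members passed, all higher in SC, as did 13.8% of all genes. All 10 proliferation markers had a positive and all 10 fibroblast markers a negative difference of changes, with medians of 1.79 and -1.43, and their part was not tested. For the d22 against d21 change, limma called 0 members with or without the block, and 0% of the 12644 genes tested without it. At an unadjusted p under 0.05 and with no block, 3 members were higher in SC, against 2.76% of all genes. The median there was 0.35, with 0.53 without SI1 and 0.14 without SI3.

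Myc and the members were also compared clone by clone. From d21 to d23 Myc changed by -1.98, -2.27, -2.74 and -1.68 in SC clones 1 to 4 in log2(RPKM + 1), and by -2.02, -1.99, -2.02 and -2.39 in SI clones 1 to 4. Over the same days the member mean changed by -0.02, -0.36, 0.06 and -0.43 in SC clones and by -0.29, -0.58, -1.39 and -0.52 in SI clones. SC3 had the largest drop of Myc and the only gain of the member mean. In SC2 and SC4 the member mean fell by more than in SI1. SI3 began from the highest member mean of the SI clones at d21, 4.98, against 3.88 to 4.31 in the others, and ended at 3.59, inside the range of the others. From d22 to d23 the member mean changed by -0.47, -0.49, -0.40 and -0.37 in SI clones 1 to 4. In SC clones 1 to 4 it changed by -0.03, -0.17, -0.37 and -0.65 over this day.

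**Figure D4:**
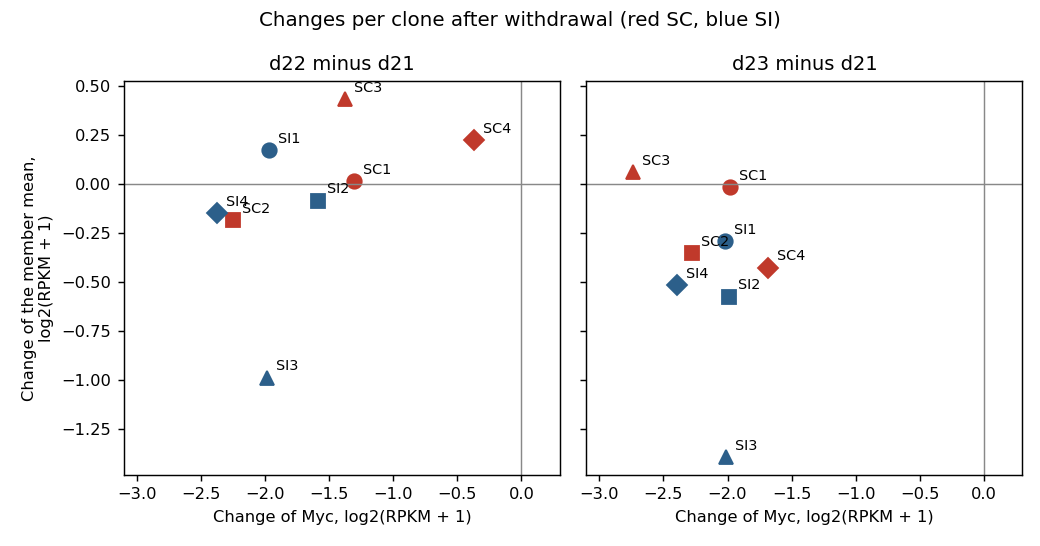
Change of Myc (horizontal) and of the mean of the 40 genes (vertical), both in log2(RPKM + 1), in each SC clone (red) and SI clone (blue) from d21 to d22 (left) and to d23 (right). All 8 clones lie left of 0 for Myc, while the member mean ranges from -1.39 in SI3 to 0.06 in SC3 at d23.

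Before withdrawal no member passed the test between the classes. At d14, SC against SI, limma called 0 of 40 members and 0% of the 11714 genes tested, and 0 members passed at an unadjusted p under 0.05, with a median of 0.02 over the members and 0.01 over all genes. The member median lay between -0.06 and 0.12 with 1 library left out. The members with the largest differences were Dkc1 (-0.18 ± 0.28, adjusted p = 0.999) and Fbl (-0.16 ± 0.23, adjusted p = 0.999), and Myc differed by 0.13 ± 0.30 (adjusted p = 0.999). At d21 it called 0 members and 0% of the 11757 genes tested. At an unadjusted p under 0.05, 9 members were higher in SC, against 8.7% of all genes. The median was 0.52 over the members, with 39 of 40 above 0, and -0.0039 over all genes, of which 5812 were above 0. Rrp12 was at 13.38, 6.42, 11.92 and 21.23 RPKM in SC clones 1 to 4 at d21, against 2.81, 3.63, 13.97 and 4.96 RPKM in SI clones, where SI3 overlapped the SC clones, and differed by 1.07 ± 0.45 (adjusted p = 0.368). Heatr1 differed by 0.95 ± 0.31 (adjusted p = 0.321). Myc differed by -0.32 ± 0.23 (adjusted p = 0.525).

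After 1 day of withdrawal, SC against SI at d22, limma again called 0 of 40 members and 0% of the 11880 genes tested. All 40 were higher in SC at an unadjusted p under 0.05, against 18.9% of all genes. The median was 0.86 over the members and -0.06 over all genes. Without SC2 all 40 passed, where 19% of all genes were higher. At the unadjusted threshold 9 of 10 proliferation markers were higher (median 1.24) and 7 of 10 fibroblast markers lower in SC (median -1.02), and their part in the difference was not tested. For 16 members every SC library was above every SI library, as for 11.4% of genes tested. Dkc1 was at 27.92, 13.88, 36.74 and 49.0 RPKM in SC clones 1 to 4 at d22, against 9.09, 11.09, 8.7 and 12.16 RPKM in SI clones, with no overlap and a difference of 1.43 ± 0.33 (adjusted p = 0.1). Nhp2 differed by 1.42 ± 0.43 (adjusted p = 0.102). Myc differed by 0.34 ± 0.19 (adjusted p = 0.227), and by 0.51 without SC2 (adjusted p = 0.0287).

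From d14 to d21 on the drug, SC clones changed in 22% of the 11806 genes tested upward and 20.6% downward, and 1 of 40 members passed, Polr1c, a subunit shared by RNA polymerases I and III. It was at 28.05, 23.39, 37.85 and 42.42 RPKM at d21, against 21.28, 23.24, 24.09 and 18.9 RPKM at d14. Each clone was higher at d21, SC2 by the least, and its d21 value was below the d14 value of SC3. The difference was 0.54 ± 0.18 (adjusted p = 0.039). No member passed without SC1, SC3 or SC4 or without the filter on low values, where 11.3% to 18% of all genes were higher. Without SC2, 9 were higher, where 21.9% of all genes were higher. The member median was 0.21, with 0.06 over all genes. It was 0.41 without SC2 and -0.0057 without SC4. All 10 proliferation markers were higher (median 1.13) and all 10 fibroblast markers lower (median -1.49) at d21, and their part was not tested. Myc differed by -0.59 ± 0.25 (adjusted p = 0.0874), and with the clone as a block by -0.59 ± 0.14 (adjusted p = 0.016). In SI clones limma called 0 members at d21 against d14 and 0% of the 11738 genes tested. With no adjustment, 1 member was lower at p under 0.05, against 7.57% of all genes. The median was -0.32 over the members and 0.05 over all genes. The member median was -0.03 without SI1, -0.67 without SI3 and -0.21 without SI4. Without SI3, 4 members were lower, where 0.635% of all genes were lower. Rrp12 differed by -0.79 ± 0.38 (adjusted p = 0.265), Tsr1 by -0.68 ± 0.27 (adjusted p = 0.246) and Myc by -0.14 ± 0.27 (adjusted p = 0.747).

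Clones kept on doxycycline to d27 were compared with d21. In SC, limma called 0 of 40 members at d27 against d21 and 0.00847% of the 11804 genes tested. At an unadjusted p under 0.05, 4 members were higher, against 4.96% of all genes. All 40 differences were above 0, with a median of 0.39 over the members and -0.02 over all genes, of which 5356 were above 0. With the clone as a block 19 members passed, all higher at d27, where 4.13% of all genes were higher. They included Gnl3 (0.55 ± 0.10), Nop58 (0.54 ± 0.10), Ncl (0.53 ± 0.13), Ddx21 (0.52 ± 0.10), Nop2 (0.51 ± 0.11) and Dkc1 (0.47 ± 0.08), with adjusted p from 0.0317 to 0.048 over the 19. Myc differed by 0.11 ± 0.26 (adjusted p = 0.898).

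In SI, limma called 0 members at d27 against d21 and 0% of the 11590 genes tested. With no adjustment, 37 members were higher at p under 0.05, against 17.3% of all genes. The median was 0.78 over the members and 0.01 over all genes. Without SI3, 36 members were higher, where 23.1% of all genes were higher. For 23 members every d27 library was above every d21 library, as for 9.56% of genes tested. Gnl3 was at 79.28, 69.25, 83.6 and 79.6 RPKM in SI clones at d27, against 22.98, 32.07, 70.95 and 35.78 RPKM at d21, where SI3 was already high, and differed by 1.05 ± 0.29 (adjusted p = 0.0929). Rrp12 differed by 1.21 ± 0.37 (adjusted p = 0.0929). Myc differed by 0.41 ± 0.18 (adjusted p = 0.166). At d27 SC against SI, limma called 0 members and 0.634% of the 11513 genes tested. At an unadjusted p under 0.05, 1 member was lower in SC, against 13.4% of all genes. The median was 0.16 over the members and -0.02 over all genes. The member median was 0.31 without SC2, 0.09 without SC3 and 0.06 without SC4. Nhp2 differed by 0.41 ± 0.27 (adjusted p = 0.357), Pes1 by 0.40 ± 0.25 (adjusted p = 0.353) and Myc by -0.62 ± 0.22 (adjusted p = 0.168). Without SC2, 9 members were higher and 1 lower in SC, where 11.6% of all genes were higher and 12.3% lower.

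The iPS cells, 6 days without the drug, had the highest member mean of the 12 groups. Myc was at 13.18, 16.27, 12.49 and 15.44 RPKM in iPS cells of SC clones 1 to 4, against 66.83, 65.54, 52.03 and 33.43 RPKM in the same clones at d27. The groups did not overlap, and Myc differed by -1.81 ± 0.21 (adjusted p = 0.0103), with 0.188 without SC1 and 0.176 without SC3. Against d27, limma called 0 of 40 members in iPS cells, where 0.42% of the 11675 genes tested were higher, 1.2% lower and 1.62% either. At an unadjusted p under 0.05, 1 member was higher and 1 lower, against 8.17% and 21.7% of all genes. The median was 0.16 over the members and -0.08 over all genes. The member median was 0.11 without SC1 and 0.10 without SC2. With the clone as a block Heatr1 passed, where 4.21% of all genes were higher. It was at 41.92, 33.2, 45.43 and 40.73 RPKM in iPS cells, against 26.34, 20.43, 34.51 and 36.33 RPKM at d27 (0.47 ± 0.11, adjusted p = 0.0496). Gnl3 differed by 0.41 ± 0.22 without the block (adjusted p = 0.242). The member mean was higher in iPS cells than at d23 by 0.52, 0.99, 0.59 and 0.58 in SC clones 1 to 4.

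Against feeders, all 40 members were higher in iPS cells, where 41.2% of the 12210 genes tested were higher and 38.8% lower, and no library overlapped for any member, as for 40.4% of genes tested. The median was 1.58 over the members and 0.06 over all genes. Dkc1 was at 51.54, 36.54, 44.51 and 48.18 RPKM in iPS cells, against 5.46, 5.55 and 4.83 RPKM in feeders, a difference of 2.87 ± 0.13 (adjusted p = 8.61e-07). Nop58 was at 152.14, 111.04, 131.02 and 147.54 RPKM in iPS cells, against 24.55, 20.8 and 18.95 RPKM in feeders, a difference of 2.60 ± 0.14 (adjusted p = 2.17e-06). Ncl was at 398.73, 301.04, 382.77 and 394.65 RPKM in iPS cells, against 67.32, 59.11 and 57.81 RPKM in feeders (2.56 ± 0.14, adjusted p = 1.94e-06). The iPS cells of SC2 were the lowest of the 4 for all 3 genes. Myc was lower in iPS cells, at 12.49 to 16.27 RPKM, against 22.33 to 25.08 RPKM in feeders (-0.67 ± 0.11, adjusted p = 0.000556), while Mycn was higher by 5.10 ± 0.18 (adjusted p = 3.24e-07). All 10 proliferation markers were higher and all 10 fibroblast markers lower in iPS cells. Their part in the member differences was not tested.

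SI clones at d23 were also set against feeders. Of 40 members, 2 were higher and 12 lower in SI, where 21.2% of the 11741 genes tested were higher and 14.6% lower, and the median was -0.15 over the members and 0.06 over all genes. Higher were Nop58, at 33.09, 30.67, 27.86 and 41.88 RPKM in SI clones 1 to 4, against 24.55, 20.8 and 18.95 RPKM in feeders (0.61 ± 0.15, adjusted p = 0.0214), and Gnl3 (0.35 ± 0.10, adjusted p = 0.0325). The lowest relative to feeders was Bop1, at 15.17, 19.78, 19.25 and 17.29 RPKM in SI, against 24.05, 28.63 and 26.62 RPKM in feeders (-0.54 ± 0.11, adjusted p = 0.0125). Nop2 (-0.51 ± 0.08) and Nop10 (-0.50 ± 0.11) followed, and none of these named genes overlapped between the groups. In both directions 23 members had libraries that did not overlap, 3 above and 20 below feeders, as for 26.2% and 19.2% of genes tested. The count of 14 called members was 8 without feeder1 and 2 without feeder2 or feeder3, where 1486, 673 and 668 genes of the whole table passed. Without feeder2 or feeder3 the adjusted p was 0.0838 and 0.0905 for Nop58, 0.0641 and 0.0617 for Bop1, and 0.0744 and 0.0765 for Nop10. Gnl3 was lost without SI2, SI4 or any feeder library (adjusted p = 0.0557 to 0.120). Myc was lower in SI (-0.75 ± 0.11, adjusted p = 0.00628). Proliferation markers averaged 2.93 ± 0.58 in SI and 2.82 ± 0.05 in feeders, and fibroblast markers averaged 8.84 ± 0.40 in SI and 9.03 ± 0.02 in feeders. Epithelial markers set the groups apart, at 5.89 ± 1.99 in SI and 0.60 ± 0.02 in feeders. All 6 of them were higher in SI, with a median difference of 5.54.

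Other genes of the ribosome were counted in the same fits. Of 96 further ribosome biogenesis genes 94 were in the table and 93 were tested. At d23, 68 of 93 were higher and 2 lower in SC than in SI (median 0.64). Within SI at d23 against d21, 40 of 93 were lower and 2 higher (median -0.44), and within SC 2 were lower (median -0.14). In iPS cells against feeders 83 were higher and 2 lower (median 1.19). Ribosomal protein genes, of which 77 of 79 were found, had 45 of 74 tested higher in SC at d23 (median 0.66). In SI 57 of 74 were lower at d23 than at d21 (median -0.77), and 51 of 75 already at d22 (median -0.62), where 12 of the 93 further biogenesis genes were lower and 2 higher (median -0.19). In iPS cells against feeders 43 of 77 were higher and 2 lower (median 0.38). Many ribosomal protein genes have processed pseudogenes among which reads could have been divided, so that their levels are uncertain. The medians of all genes tested in these comparisons are those given above.

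**Figure D5:**
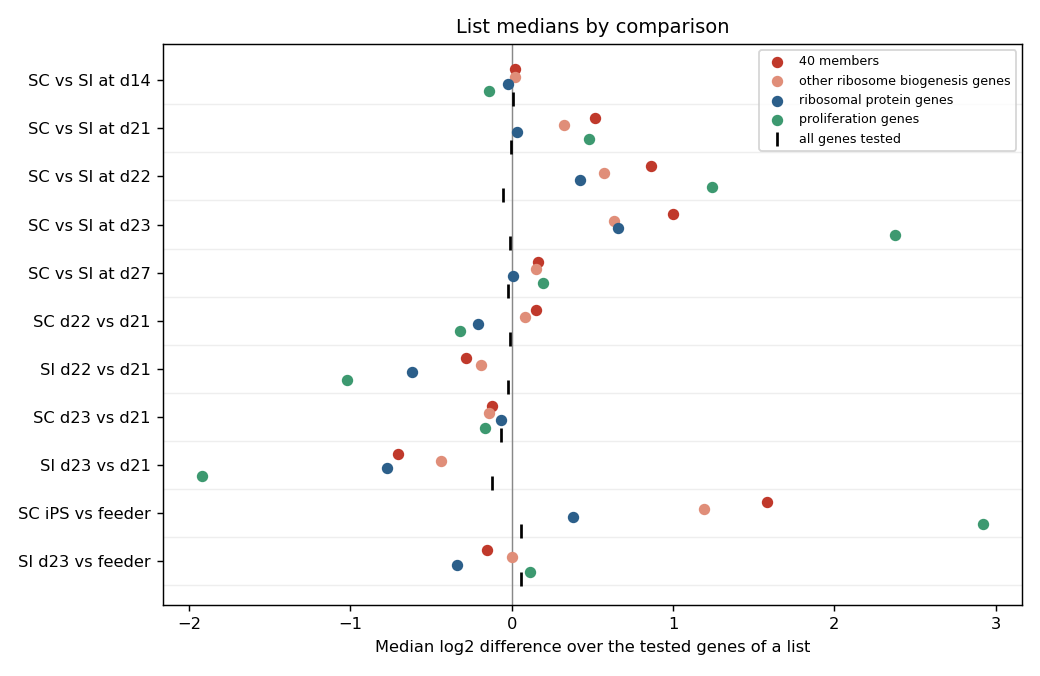
Median log2 difference over the tested genes of each list (points) and over all genes tested (black ticks) in 11 comparisons, the group named first minus the other. The 40 genes reach 1.00 for SC against SI at d23 and 1.58 for iPS cells against feeders, and proliferation genes show the widest span.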

How the data were processed

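Expression came from 1 deposited table with a column for each of 47 libraries and 22632 genes. The values are RPKM made by the authors, a unit named in neither table nor labels: multiplied by exon length in gigabases, the deposited values of a library add up to 0.788 to 0.998 over 20766 genes, where RPKM gives about 1. The submitters' processing notes list CASAVA 1.8 and mm9. The aligner was not given in the sources used here. RNA was column-purified with DNase and made into TruSeq libraries, per the labels. Sums of RPKM ran from 189172.4 to 245694.8.

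Using limma 3.58.1 under R 4.3.3 (lmFit, eBayes with trend), each comparison was fitted to the libraries of its groups on log2(RPKM + 1), for genes with at least 1 RPKM in as many libraries as the smaller group. All 40 members passed this filter in every comparison. P-values are two-sided, Benjamini-Hochberg adjusted over all genes tested, threshold 0.05. Shares of all genes are from the same fit and threshold as the count beside them. The fit was tried on simulated data, in which genes vary independently with the spread of SI d27. Such data hold no shift shared by the genes of a clone, so they cannot show how stable the counts are. Replicates are clones. Within a class the clone is the same at both days, and deviations of the same clone correlated at 0.169 to 0.914 except for SI d21 and d14 (-0.355 to 0.724). The main fits have no clone block, which is an alternative along with a pseudocount of 0.1, no filter and median ratio rescaling. Each clone, with all its libraries in a comparison, and each feeder library were also left out in turn. Promoter windows are RefSeq's on GRCm38.p6. Members and lists were chosen with earlier results of these data known.

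Named genes were Myc, up to 3 largest rises and falls among called members per comparison or the 2 largest differences where none passed, and 19 members chosen by role. Those of a clone block, Mycn, and single genes beside a count of 5 or fewer were named after their values were seen. Python 3.11.15 with pandas 2.3.3, numpy 2.4.6 and matplotlib 3.10.9 made the summaries and plots.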

Additional observations from a re-analysis of the deposited data

Results flagged for a closer look

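In groups of 4 libraries, a library was marked where its gap to the nearest other was a larger share of the group's range than Dixon's critical value allows. Of 231 groups of values examined, 18 were marked. Chance marks about 1 in 20 of independent groups. These groups are not independent, since they share libraries and the member mean holds the members, so the rate is no yardstick here. Clone SC2 accounts for 11 of the 18 marks. Its member mean in log2(RPKM + 1) was 4.02 at d23, against 4.87 to 4.90 in the other SC clones, and 5.02 in iPS cells, against 5.41 to 5.47. At d23 it stood low for Dkc1 (10.64 RPKM, others 31.31 to 35.02), Nop56 (17.59, others 35.63 to 38.33), Fbl (4.13, others 7.16 to 7.40), Wdr43 (25.21, others 57.18 to 60.39), Gnl3 (36.43, others 84.71 to 89.2) and Nob1 (7.14, others 12.2 to 12.56). In iPS cells it stood low for Ncl (301.04, others 382.77 to 398.73), Wdr43 (59.18, others 83.38 to 86.43) and Bop1 (37.76, others 49.65 to 51.55).

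The remaining marks were on other clones. SI3 at d27 stood high in the member mean (5.15, others 5.05 to 5.06) and in Nop56 (47.95 RPKM, others 39.98 to 40.89), and at d22 low in Ubtf (20 RPKM, others 31.32 to 32.18). SI1 stood low in Myc at d22 (12.54, others 15.27 to 15.74) and in Fbl at d23 (2.33, others 3.68 to 3.76). SI4 stood high in Pes1 at d23 (11.49, others 9.67 to 9.88), and SC3 in Npm1 at d14 (94.95, others 82.76 to 84.21).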

How the results depend on the processing

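With the clone as a block within a class, counts of called members became 8 for SC d22 against d21, 19 for SC d27 against d21, 10 for the d23 interaction and 1 for iPS cells against SC d27. The shares of all genes beside these counts are those given above. With this block Myc in SC d21 against d14 passed at -0.59. Between SC and SI, and between clones and feeders, the numbers shared are names only, so those replicate blocks pair nothing. They gave 30 for SC against SI at d23, where 12% of all genes were higher and 8.09% lower. For SI d23 against feeders they gave 0, where 1.46% of all genes were higher and 1.84% lower. The block changed no other count of members past 1.5 times and no other call of Myc. Without the filter, SC d21 against d14 gave 0, where 14.7% of all genes were higher. SC d23 against d21 gave 0 without the filter and after rescaling, where 1.39% and 2.32% of all genes were lower. Rescaling turned no called member round. A pseudocount of 0.1 moved the member mean to 3.98 in SI d22, 3.51 in SI d23, 5.02 in SI d27 and 3.64 in feeders, and rescaling moved feeders to 3.91. Only groups whose mean moved by more than its SD between libraries are named here. A smaller pseudocount lowers every such mean. Feeder RPKM were divided by rescaling factors of 0.898 to 0.907, which raises them.

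In turn, 1 clone with all its libraries in a comparison, or 1 feeder library, was left out. Between SC and SI, called members then ranged from 0 to 40 at d22 and at d23 and from 0 to 10 at d27. The share of all genes higher in SC ranged from 0% to 19% at d22 and from 0.0164% to 32.8% at d23. At d27 it ranged from 0% to 11.6%, and the share lower from 0% to 12.3%. For d21 against d14 called members ranged from 0 to 9 in SC, where 11.3% to 21.9% of all genes were higher. In SI they ranged from 0 to 4, where 0% to 0.635% of all genes were lower. Against d21 called members ranged from 3 to 16 for SI d22, 12 to 26 for SI d23, 0 to 1 for SC d23 and 0 to 36 for SI d27. The share of all genes lower ranged from 6.36% to 26.8% for SI d22 and from 20.8% to 36.9% for SI d23. It ranged from 0.00836% to 3.82% for SC d23. For SI d27 the share of all genes higher ranged from 0% to 23.1%. For the d23 interaction the range was 0 to 11, where 0% to 13.8% of all genes were higher. For SI d23 against feeders it was 2 to 20, where 2.34% to 39.9% of all genes were higher and 3.17% to 25.2% lower. The count was 40 throughout for iPS cells against feeders, where 37.5% to 47.1% of all genes were higher. It was 0 for the other comparisons, where at most 10.1% of all genes passed in a given direction. Myc ranged from -0.02 to 0.31 for SC against SI at d14, 0.20 to 0.51 at d22 and -0.48 to -0.24 at d23, -0.30 to 0.03 for SI d21 against d14, -1.64 to -1.02 for SC d22 and -2.33 to -1.98 for SC d23 against d21, -0.23 to 0.12 for the d23 interaction and -2.06 to -1.66 for iPS cells against SC d27. The differences of named genes that turned direction, none of them called, were -0.0121 without SC2, -0.0195 without SI2 and -0.0093 without SI3 for Myc at d14, 0.0142 for Dkc1 without SI1 there (range -0.38 to 0.0142), 0.0329 for Myc without SI1 in SI d21 against d14, and 0.12 for Myc without SC3 in the d23 interaction. Member medians turned for SC against SI at d14 (-0.05 without SC3 or SI2 and -0.06 without SI3), SC d21 against d14 (-0.0057 without SC4) and SI d22 against d21 (0.02 without SI3). Read depth, known only from the spacing of values, sets 0.0102 to 0.0370 RPKM as the worth of 1 read in a 1 kb gene.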

Other observations

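Besides Myc and Mycn, 11 further genes of the Myc network were tested. In SI clones at d23 against d21, the dimer partner Max, the relatives Mycl, Mxi1 and Mlx, and the network gene Zbtb17 fell with Myc. Lower were thus 6 of 13 network genes and none was higher, where 32% of genes tested were lower. Max was at 26.02, 31.19, 24.46 and 28.06 RPKM at d23, against 41.25, 53.16, 48.02 and 48.49 RPKM at d21, with no overlap (-0.78 ± 0.12, limma adjusted p = 0.00083). In SC clones Max was at 25.11, 25.21, 25.09 and 20.65 RPKM at d23, against 40.58, 43.21, 36.79 and 33.65 RPKM at d21 (-0.66 ± 0.13, adjusted p = 0.0303). Max and Myc were the network genes that fell in SC clones, 2 of 13, where 2.81% of genes tested were lower. The SC and SI changes of Max differed by 0.12 ± 0.17 (adjusted p = 0.663). Without SC1 or SC3, 4 genes and 1 gene of the whole table passed in SC at d23 against d21.

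At d23, 2 of 13 network genes were higher and 1 lower in SC than in SI. Of all genes tested, 23% were higher and 19.5% lower. Besides Mycn, the called network genes were Mga and Mxd4. Mga, a repressive partner of Max, was higher in SC, at 12.26, 9.31, 15.77 and 17.19 RPKM, against 7.36, 5.99, 4.91 and 7.0 RPKM in SI (0.98 ± 0.20, adjusted p = 0.0222). Mxd4, which competes with Myc for Max, was lower in SC, at 9.33, 17.95, 6.44 and 3.75 RPKM, against 18.12, 24.46, 24.95 and 18.12 RPKM in SI (-1.28 ± 0.38, adjusted p = 0.0318). SC2 was the SC library nearest to SI for both, and neither gene overlapped. As for the ribosome genes, this contrast lost nearly all calls when 1 of SC1, SC3, SC4, SI2, SI3 or SI4 was left out.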
